A study of Rattus norvegicus with 4 samples.

Results

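Collagens and other genes that build, fill and crosslink the extracellular matrix were followed in rat colon. The group holds 60 genes, listed by symbol, and a member was taken as measured when the RefSeq accession of a row mapped to its symbol and the row had a value on all 4 arrays. By this rule 39 of the 60 genes were measured, out of 6968 named genes with a measured row. Where a gene had several rows, the row with the highest mean was used, which concerned Bcan only. For 18 genes no row was matched by name, so they were not analysed here: Col1a1, Col5a2, Col11a1, Col12a1, Col18a1, Lox, Ogn, Vcan, Lama5, Lamc1, Nid1, Nid2, Hspg2, Postn, Thbs2, Thbs4, Tnc and Matn3. For the other 3, Col2a1, Spp1 and Tnr, the deposited row was blank on all 4 arrays.

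The samples were colon tissue of male Sprague Dawley rats, 2 of the control group and 2 of the MSCT group, with 1 array per rat. The MSCT rats received TNBS (2,4,6-trinitrobenzene sulfonic acid, a hapten that inflames the colon when instilled with ethanol) to establish inflammatory bowel disease (IBD), and a day later mesenchymal stem cells labeled with green fluorescent protein through the tail vein. The control rats had no transplantation. The paper and the series text call them IBD control rats, which would also carry TNBS, whereas the sample descriptions call them normal rats. The comparison can therefore hold the effect of the transplantation alone or that of colitis and transplantation together, and these could not be separated by the labels. The age of the rats is not given in the sources used here, and the day of tissue collection differs between the Methods and the Results of the paper. The paper states that the pieces covered the lesion region, which control rats would lack if they were normal. It describes no separation of layers, so mucosa, muscle wall and infiltrating cells were taken to be measured together.

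The extracellular matrix of the gut wall is made mainly by fibroblasts and smooth muscle cells. Fibrillar collagens are secreted as procollagen chains, which are hydroxylated and folded in the endoplasmic reticulum, trimmed outside the cell and then crosslinked into fibrils. Small proteoglycans control the thickness and spacing of the fibrils, elastic fibres give recoil, and the basement membrane carries the epithelium. Matricellular proteins such as thrombospondins and SPARC tune how cells attach to this scaffold, and syndecans and glypicans bind growth factors and matrix at the cell surface. In colitis, matrix is both degraded and laid down, and lasting deposition is known as fibrosis.

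Values are given as log2 intensity of the deposited signal, and a difference is MSCT minus control on that scale, with the standard error of limma, whose linear model borrows information on the variance from all rows. The array medians differed by at most 0.07 on the log2 scale over the 18350 measured rows. The signal of a row depends on its probes, so levels were not compared between genes. With 2 arrays against 2, an exact permutation test cannot give a two-sided p under 0.333, and each limma p rests on the shared variance. No row of the table passed an adjusted p of 0.05 by limma, whereas 2196 rows (12.0%) had an unadjusted p under 0.05. Of these, 850 rows (4.63% of all) also exceeded 2-fold, the limits of the screen used in the study. The screen was applied here to limma p-values over rows, so the 850 rows are not the study's own count of genes. Of the colon epithelium markers 13 of 17 were measured, with Cldn7 between 14.78 and 15.02 and Krt19 between 14.69 and 15.09 on the 4 arrays.

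The differences of the matrix genes were mostly small, more of them above 0 than below, and how many were above 0 depended on the control array. Of the 39 measured genes, 26 (66.7%) had a difference above 0, against 48.0% of all rows and 55.8% of the named genes. Without control replicate 2 the tally was 21 above 0 and 18 below, and without control replicate 1 it was 29 and 10. It was 24 and 15 after quantile normalization and 29 and 10 with equal array medians. The median difference was 0.22, against -0.02 over all rows and 0.05 over the named genes. In 22 members (56.4%) both arrays of one group lay above both of the other, as in 45.8% of all rows. In 15 of them (38.5%) the MSCT arrays were the higher ones, against 21.3% of all rows and 27.6% of named genes, and in 7 (17.9%) they were the lower ones, against 24.5% and 20.2%. The brighter 50% of rows held 31 members, of which 14 members (45.2%) did not overlap and were higher, against 26.3% of those rows. Another 5 of the 31 (16.1%) did not overlap and were lower, and the share of the brighter rows lower in this way was not counted.

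An unadjusted limma p under 0.05 was found for 6 members (15.4%), close to the 12.0% of all rows. Higher in the MSCT group were Bgn, P4ha1, Col1a2 and Thbs1, which is 10.3% of the members against 4.80% of all rows. Lower were Sdc3 and Col5a3, 5.13% against 7.17%. Only Sdc3 also exceeded 2-fold, downward, as did 2.51% of all rows, and 0 members passed an adjusted p of 0.05 in this fit. These counts depended on the test and on single arrays. By an equal-variance t-test on the same values, 4 members had an unadjusted p under 0.05, namely Sdc3, P4ha1, Thbs1 and Prelp (lower), whereas Bgn, Col1a2 and Col5a3 did not. The paper names no test for its arrays, and this t-test is the form that its analysis of variance, stated for the experiments, takes with 2 groups. Without control replicate 1, Col3a1, Pcolce and Bgn joined Sdc3 past the screen, without control replicate 2 Bcan (higher) and Gpc3 (lower) did, and without MSCT replicate 1 only Bgn passed, because Sdc3 was at -0.99, short of 2-fold. With either MSCT array left out, 2 members had an unadjusted p under 0.05. The median difference was 0.13 without control replicate 2 and 0.13 without MSCT replicate 2.

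**Figure D1:**
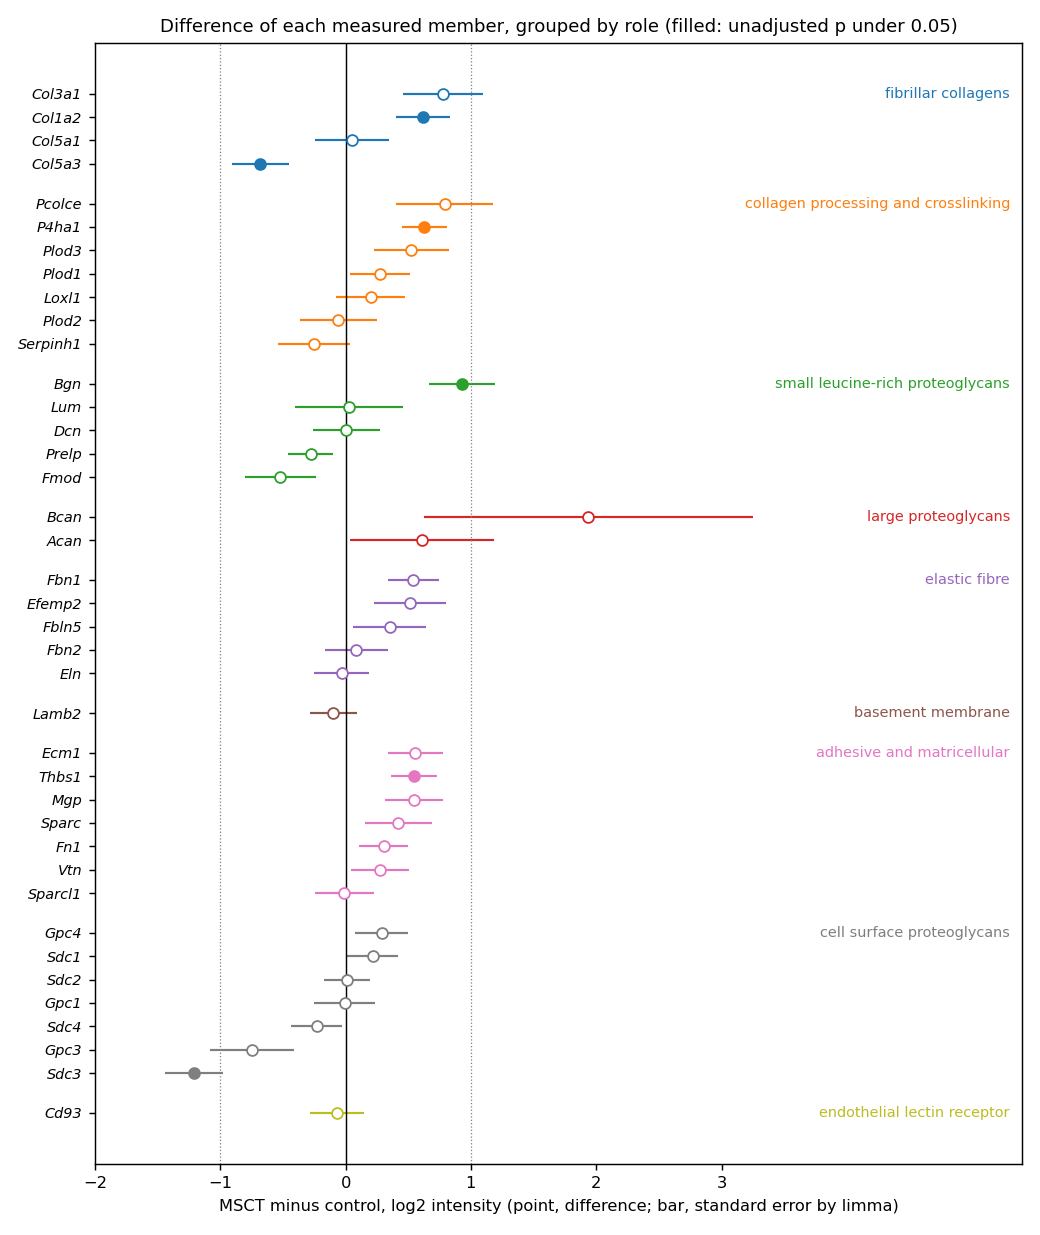
The plot of differences by role shows, for each of the 39 measured genes, MSCT minus control in log2 intensity on the horizontal axis, with the limma standard error as a bar. Filled points had an unadjusted p under 0.05, the dotted lines mark 2-fold, and Sdc3 lies beyond the left line while the long bar of Bcan comes from 1 control array.

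Among the fibrillar collagens, 4 of 8 genes were measured, and Col1a2 was the one with a higher level and an unadjusted p under 0.05. Col1a1, the other chain of type I collagen, was not analysed here. Col1a2 (NM_053356), the α2 chain of type I collagen, lay at 13.87 and 13.52 in the control rats and at 14.28 and 14.34 in the MSCT rats (replicates 1 and 2). The difference was 0.62 (standard error 0.22; limma adjusted p = 0.399), 1.53-fold, and the groups did not overlap. Col3a1, the chain of type III collagen, which is laid down early in repair, lay at 13.09 and 12.32 against 13.48 and 13.48. Both MSCT arrays were above both control arrays, but the control arrays were as far apart as the difference of 0.78 between the groups (standard error 0.32; limma unadjusted p = 0.0631). Without control replicate 1 the difference of Col3a1 was 1.16 and without control replicate 2 it was 0.39.

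The type V chains are minor collagens that start fibrils and set their width. Col5a1 lay at 12.53 and 11.85 against 12.16 and 12.33, so that both MSCT arrays fell between the control arrays. Col5a3 (NM_021760) was lower in the MSCT group, at 9.80 and 9.63 against 8.84 and 9.23. Its difference was -0.68 (standard error 0.23; limma adjusted p = 0.389), with no overlap, and it lay in the dimmer 50% of rows. The differences of Col1a2 and Col5a3 thus had opposite signs within the fibrillar collagens, and the plot of the 6 genes by array shows this side by side.

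**Figure D2:**
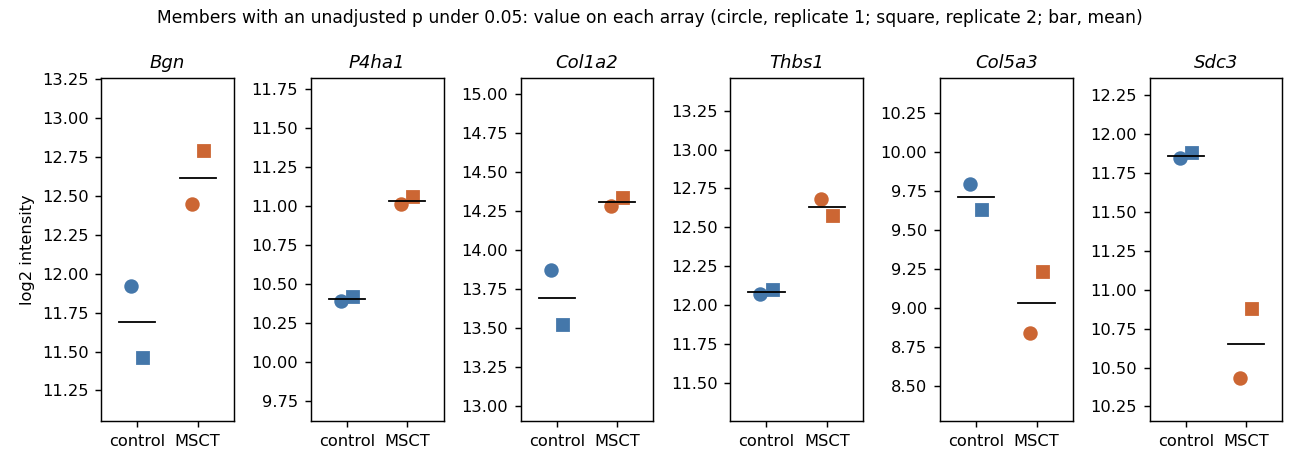
Log2 intensity on each of the 4 arrays for the 6 genes with an unadjusted limma p under 0.05, with replicate 1 as a circle, replicate 2 as a square and the group mean as a bar; each panel has its own vertical axis with the same span. The groups do not overlap in any panel, and the replicates lie closest together for P4ha1 among the higher genes.

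Of the genes that process and crosslink collagen, 7 of 8 were measured, 5 of them higher and 2 lower. P4ha1 (NM_172062), the catalytic subunit of prolyl 4-hydroxylase, whose hydroxyproline stabilises the collagen triple helix, lay at 10.39 and 10.42 in the control rats and at 11.01 and 11.06 in the MSCT rats. The replicates of each group were less than 0.1 apart, and the difference was 0.63 (standard error 0.18; limma adjusted p = 0.341). With any array left out it stayed between 0.61 and 0.65, although the unadjusted p then lay between 0.0531 and 0.117. P4ha1 was thus among the most repeatable values of the group.

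Pcolce, an enhancer of the protease that trims the procollagen C-terminus, had a larger difference (0.79, standard error 0.39) with less support. Its arrays lay at 10.08 and 9.15 against 10.18 and 10.63, and the gap between the control arrays was 0.93. The lysyl hydroxylases, which prepare lysines for crosslinks, did not reach the threshold. Plod3 lay at 11.41 and 12.11 against 12.25 and 12.31 and Plod1 at 13.40 and 12.95 against 13.53 and 13.37, with differences of 0.52 and 0.27. Plod2, which directs the crosslinks typical of fibrosis, overlapped between the groups, with a difference of -0.06. Serpinh1, the collagen chaperone HSP47, differed by -0.25 and Loxl1, a lysyl oxidase of elastic fibres, by 0.20, and both overlapped. The unadjusted p of these 6 genes was between 0.106 and 0.861.

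Of the small leucine-rich proteoglycans 5 of 6 were measured, with 3 differences above 0 and 2 below. Bgn (NM_017087), which encodes biglycan, a proteoglycan that binds collagen and can signal through Toll-like receptors when released, had the largest upward difference among the members with an unadjusted p under 0.05. It lay at 11.92 and 11.46 in the control rats and at 12.45 and 12.79 in the MSCT rats. The difference was 0.93 (standard error 0.26; limma adjusted p = 0.339), 1.90-fold. Leaving out control replicate 2 gave 0.69 and leaving out control replicate 1 gave 1.16. Among the alternatives run, Bgn passed an adjusted p of 0.05 only with the trend and robust options of limma switched on together (limma adjusted p = 0.0425), and by the t-test its adjusted p was 0.560.

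Dcn (decorin), the closest relative of biglycan, overlapped between the groups, with 12.98 and 12.45 against 12.59 and 12.86 and a difference of 0.01 (standard error 0.27). For Lum (lumican), control replicate 1 lay at 13.00 and control replicate 2 at 11.83, and the MSCT arrays, at 12.44 each, fell between them. Without control replicate 2 the difference of Lum was -0.56 and without control replicate 1 it was 0.61, so the arrays give no direction for this gene. Prelp, which anchors basement membranes to the tissue below, had the closest replicates of the group, at 14.29 and 14.28 against 14.00 and 14.02. Its difference of -0.28 (standard error 0.18) had an unadjusted p of 0.192 by limma. By the equal-variance t-test, the unadjusted p of Prelp was 0.00213 and the adjusted p 0.384. Fmod (fibromodulin) was at 11.66 and 11.02 against 10.81 and 10.82, and its difference was -0.52 (standard error 0.28; limma unadjusted p = 0.130), with no overlap.

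The large aggregating proteoglycans Acan and Bcan, typical of cartilage and brain, were in the dimmer 50% of rows and gave no usable direction. Bcan lay at 5.68 on control replicate 1 and at 9.55 on control replicate 2, against 9.46 and 9.64. Control replicate 2 was thus level with the MSCT arrays, and the difference of 1.94 (standard error 1.31) became -0.0012 without control replicate 1 and 3.87 without control replicate 2. The other row of Bcan showed the same gap, with 6.41 and 8.96 against 8.83 and 9.02. Acan lay at 8.16 and 6.81 against 8.55 and 7.64, and the groups overlapped. Of 8 cartilage and bone markers, Acan was the only one measured.

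All 5 genes of the elastic fibre were measured. Fbn1, the main fibrillin of the microfibril scaffold, lay at 9.79 and 9.51 in the control rats and at 10.16 and 10.22 in the MSCT rats. Its difference of 0.54 (standard error 0.20) had an unadjusted limma p of 0.0514, and after quantile normalization or with equal array medians it was 0.58, with a p under 0.05. Efemp2 (fibulin-4), which brings lysyl oxidase to elastin, lay at 11.71 and 11.19 against 12.18 and 11.75, with a difference of 0.52 and no overlap by a small margin. Eln, elastin itself, lay within its own replicate spread, at 11.20 and 10.84 against 11.03 and 10.95 (difference -0.03). Fbln5 (0.35) and Fbn2 (0.09) overlapped between the groups. Of the basement membrane genes only Lamb2, the laminin β2 chain, was measured (1 of 6), at 12.97 and 13.00 against 12.81 and 12.96, a difference of -0.10 (standard error 0.19).

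Of the adhesive and matricellular glycoproteins 7 of 14 were measured, 6 had a difference above 0, and in 5 of them the groups did not overlap, as in 21.3% of all rows and 26.3% of the brighter rows. Thbs1 alone had an unadjusted p under 0.05. Thbs1 (NM_001013062) encodes thrombospondin 1, which activates latent TGF-β and inhibits the growth of vessels. It lay at 12.07 and 12.10 in the control rats and at 12.68 and 12.58 in the MSCT rats. The difference was 0.55 (standard error 0.18; limma adjusted p = 0.386), several times the gap within either group, and it stayed between 0.49 and 0.60 with any array left out.

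Ecm1, a secreted glycoprotein that binds perlecan and fibulins, lay at 12.34 and 11.96 against 12.66 and 12.76, and Mgp, an inhibitor of calcification, at 12.91 and 12.64 against 13.14 and 13.50. Their differences were 0.56 (standard error 0.22) and 0.55 (standard error 0.23), with unadjusted limma p-values of 0.0605 and 0.0737. Both genes were separate between the groups without reaching the threshold. Sparc, a collagen-binding protein needed for fibril assembly, lay at 14.42 and 13.83 against 14.58 and 14.51, a difference of 0.42. Its relative Sparcl1, at 14.81 and 14.36 against 14.62 and 14.52, differed by -0.01. Fn1, fibronectin, the provisional matrix onto which collagen is laid, differed by 0.30 (standard error 0.19), at 12.78 and 12.70 against 12.95 and 13.14. Vtn (vitronectin) differed by 0.27 with overlap.

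The syndecans and glypicans, which carry heparan sulfate at the cell surface, were all measured, and they included the only gene past the screen. Sdc3 (NM_053893), syndecan 3, is known above all from neurons and developing muscle. It lay at 11.84 and 11.88 in the control rats and at 10.43 and 10.87 in the MSCT rats. The control arrays were 0.04 apart and the MSCT arrays 0.44 apart, and the groups were separated by far more. The difference was -1.21 (standard error 0.23; limma adjusted p = 0.286, unadjusted 0.00496), so the control group was 2.31-fold above the MSCT group. It ranged from -1.43 without MSCT replicate 2 to -0.99 without MSCT replicate 1. The adjusted p was 0.0332 without the dimmest 50% of rows and 0.0150 with the trend and robust options together, and it was 0.496 by the t-test. Beside Sdc3, genes of enteric neurons and glia were lower in 9 of 11 measured, with a median of -0.38, whereas 55.8% of the named genes had a difference above 0. The log2 of their summed intensity, in which bright rows weigh most, was 13.76 and 13.69 in the control rats. In the MSCT rats it was 13.28 and 13.29. What part these genes had in the value of Sdc3 was not tested.

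The other syndecans had smaller differences. Sdc1, the syndecan of epithelium and plasma cells, differed by 0.22, Sdc2, that of fibroblasts, by 0.01 and Sdc4, the widespread form at focal adhesions, by -0.23. Sdc4 lay at 13.78 and 14.03 against 13.60 and 13.75, and Sdc2 at 12.16 and 12.07 against 12.13 and 12.12. Whether Sdc3 differed from the other syndecans was not tested. Among the glypicans, Gpc3 was lower (9.93 and 9.10 against 8.68 and 8.86; difference -0.74, standard error 0.34, limma unadjusted p = 0.0841), and without control replicate 1 it differed by -0.33. Gpc1 (-0.01) and Gpc4 (0.29) had smaller differences. Cd93, a lectin receptor of endothelial and myeloid cells that binds a matrix protein rather than forming matrix, was in the dimmest 25% of rows, lay at 7.45 and 7.12 against 7.26 and 7.17, and differed by -0.07.

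For 1 lower and 1 higher gene, the 150 bases before the annotated start are shown as a view of the promoters, from RefSeq on build GRCr8, 5′ to 3′ on the strand of the gene. Capitals mark GGGCGG (the GC box of Sp factors) and CCAAT on either strand; GGGCGG reads CCGCCC and CCAAT reads ATTGG on the opposite strand. Both genes lie on the plus strand, at chr5:148249642-148249791 (Sdc3) and chr3:125510100-125510249 (Thbs1), and both windows end at the base before the annotated start.
Sdc3: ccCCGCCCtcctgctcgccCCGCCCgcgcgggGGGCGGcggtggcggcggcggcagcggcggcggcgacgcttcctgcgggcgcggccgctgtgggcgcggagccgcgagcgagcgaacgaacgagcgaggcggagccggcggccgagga
Thbs1: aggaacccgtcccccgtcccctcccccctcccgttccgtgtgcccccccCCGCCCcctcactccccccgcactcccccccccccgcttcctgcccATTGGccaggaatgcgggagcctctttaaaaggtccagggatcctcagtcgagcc
The window of Sdc3 is 84.7% G and C and holds GGGCGG or its complement 3 times, while that of Thbs1 is 71.3% G and C and holds it once, with a CCAAT box at 55 to 51 bases before the start. Of the 39 measured members, 28 had a promoter in the table. Where a gene symbol had several promoters, the first listed was used, here and for the windows shown. Over 250 bases before the start, 20 of the 28 (71.4%) held GGGCGG on either strand. It was held by 55.0% of 5664 measured named genes with a promoter and by 32.4% of all 27457 gene symbols with a promoter. CCAAT was held by 7 of the 28, against 36.3% and 34.3%. TATAAA was held by 2 (7.14%, against 8.09% and 13.1%) and the AP-1 motif TGANTCA by 1 (3.57%, against 5.19% and 6.36%), both strands searched. A match describes the letters in these windows and no binding was measured.

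The replicates of the control group were far apart in the matrix genes. Control replicate 1 was above control replicate 2 in 27 of 39 members (69.2%), against 48.5% of all rows, with a median gap of 0.35. All 4 fibrillar collagens, all 5 small leucine-rich proteoglycans and all 5 elastic fibre genes measured had this order. So did 5 of 7 adhesive and matricellular genes, 4 of 7 collagen processing genes, 1 of 2 large proteoglycans and Cd93. Only 2 of 7 cell surface proteoglycans had it, and Lamb2 did not. The gap exceeded 0.5 in 15 members (38.5%), against 30.3% of all rows and 15.6% of the brighter 50% of rows. Between the MSCT arrays it did so in 2 members (5.13%), against 24.2% and 5.74%, and the median gap in size was 0.16 there and 0.45 between the control arrays. Fibroblast markers had the same order between the control arrays in 9 of 9 measured genes, with a median gap of 0.22. Smooth muscle markers had it in 4 of 8, and the epithelial markers in 5 of 13. Endothelial markers had it in 6 of 7, with a larger median gap of 0.60. The differences of Col1a2, Col3a1, Col5a1, Lum, Pcolce and Gpc3 therefore moved with the choice of control array. Those of P4ha1, Thbs1, Prelp and Sdc3, whose control arrays were less than 0.05 apart, did not. For Col5a3 the control arrays were 0.17 apart, and its difference moved more with the choice of MSCT array.

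**Figure D3:**
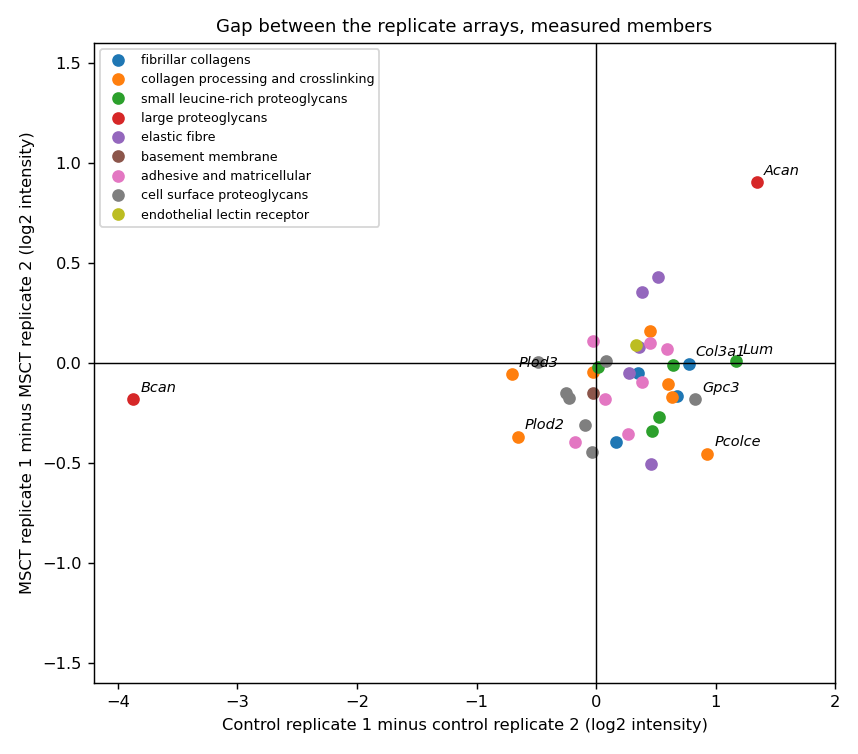
Each point is 1 of the 39 measured genes, with the gap between the control arrays on the horizontal and that between the MSCT arrays on the vertical axis, both replicate 1 minus replicate 2 in log2 intensity; the axes differ in span. Most points lie to the right of 0, with a median control gap of 0.35, and close to 0 on the vertical axis, and Bcan lies far to the left.

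In a wider list of matrix genes outside the group, 18 of 79 were measured, with 10 higher and 8 lower and a median difference of 0.26. An unadjusted limma p under 0.05 was reached by 5 higher genes and 1 lower gene, against 4.80% and 7.17% of all rows. The higher ones included Lama3 (0.68), a laminin chain of epithelial basement membrane, Has1 (0.82), a hyaluronan synthase, and P3h1 (0.60), the prolyl 3-hydroxylase of collagen. The others were Ccn2 (0.83), a growth factor of connective tissue induced by TGF-β, and Ltbp2 (0.80), a protein of microfibrils. Has1 and Ltbp2 lay in the dimmest 25% of rows. The lower one was Ccn1 (-0.50), a relative of Ccn2, followed without reaching the threshold by Hapln1 (-0.83), Sulf1 (-0.34), Chad (-0.77) and Gpc2 (-0.18). Of the receptors for matrix, 11 of 23 were measured, 6 higher and 5 lower, with a median of 0.08. Cd44, the receptor of hyaluronan, was the only one with an unadjusted p under 0.05 (8.73 and 9.52 against 10.37 and 9.86, difference 0.99). Itgb6 (0.47), Cd36 (1.08), Mrc2 (0.98) and Itgb1 (0.24) were higher and Itga7 (-0.42), Itgb4 (-0.22), Cd47 (-0.10), Ddr1 (-0.02) and Itga1 (-0.01) lower without reaching it. Over both lists, 7 of 29 genes had an unadjusted p under 0.05 (6 higher and 1 lower), beside 12.0% of all rows. None did without MSCT replicate 1, the t-test gave 4 higher and 4 lower, and equal array medians gave 9 higher and 0 lower.

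Markers of the cells that make or surround the matrix are given beside these values. In bulk tissue, more cells of a type and more RNA per cell cannot be told apart. Of the fibroblast markers 6 of 9 were higher, with a median of 0.39. Fap, counted in the wider matrix list too, was at 0.89 and in the dimmest 25% of rows. Vim (0.68) and S100a4 (0.81), which other cells express too, had an unadjusted p under 0.05, while Thy1 (-0.22), Pdpn (-0.05) and Prrx1 (-0.12) were lower. The log2 of the summed intensity of the list was 14.68 and 14.34 in the control rats and 14.75 and 14.99 in the MSCT rats. The smooth muscle markers were level, with all 8 differences between -0.13 and 0.08 and Acta2 and Tagln at -0.04 and 0.02. Endothelial markers were higher in 6 of 7 (median 0.45), with Pecam1 at 0.29 and Esam at -0.05. Kdr, Flt1, Icam2, Eng and Emcn lay in the dimmer 50% of rows, and Pecam1, Kdr, Icam2 and Emcn overlapped between the groups. Beside these counts, 55.8% of the named genes had a difference above 0.

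Macrophage markers were higher in 8 of 9, each of the 8 with an unadjusted limma p under 0.05, and none passed an adjusted p of 0.05. Of all rows 4.80% were higher with such an unadjusted p, and 55.8% of the named genes had a difference above 0. The median of the macrophage markers, 1.00, was above that of any other marker list. The log2 of the summed intensity of the macrophage list was 14.10 and 14.21 in the control rats and 14.62 and 14.85 in the MSCT rats. Its brightest row, Cd14, was at -0.04, and C1qc was at 0.91. Of the lymphocyte markers all 4 measured were higher, by 0.01 to 1.89, with Cd4 at 0.37 and Zap70 at 1.89. All 4 lay in the dimmer 50% of rows, and Cd3g, Cd8a and Cd4 overlapped between the groups. Zap70 did not overlap, but its MSCT arrays were 1.32 apart. Colon epithelium markers were higher in 10 of 13, with a median of 0.22, equal to that of the matrix genes, and Cldn7 at 0.15 and Krt19 at -0.05. Among the neuron and glia genes given beside Sdc3, Uchl1 was at -0.54 and Tubb3 at -0.38, while Gfap, the filament of glia, was at 1.06. What part these cells had in the matrix differences was not tested.

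**Figure D4:**
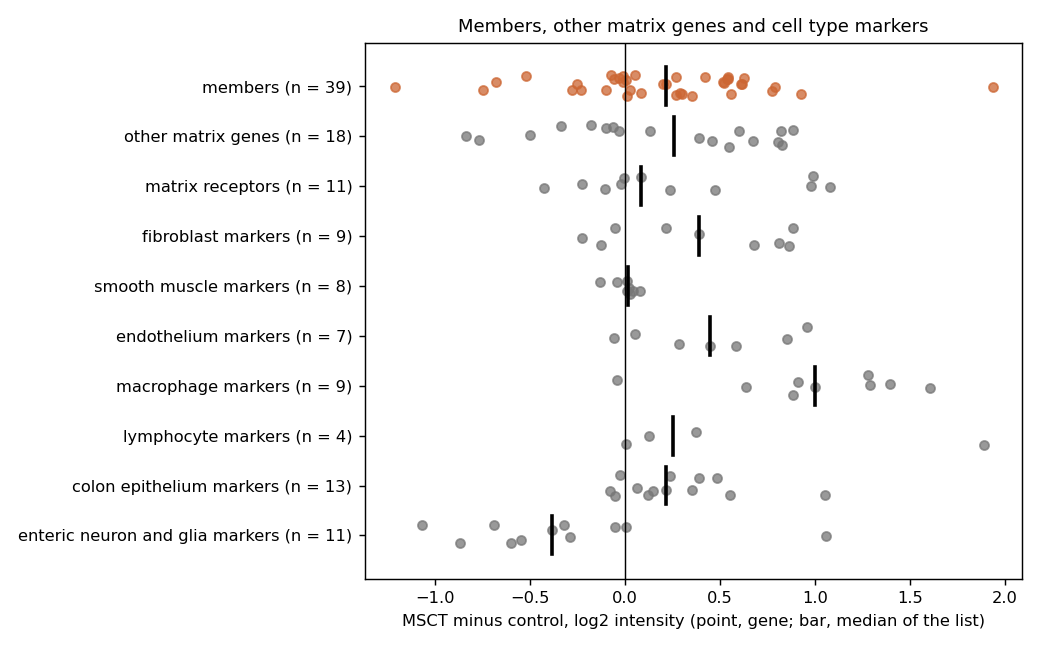
Differences (MSCT minus control, log2 intensity, horizontal axis) of the 39 measured matrix genes and of the genes in the other lists, 1 point per gene with the list median as a bar; vertical scatter within a list has no meaning. The matrix genes spread from -1.21 to 1.94 around a median of 0.22, the smooth muscle markers stay close to 0, and the macrophage and the neuron and glia lists lie on opposite sides.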

How the data were processed

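Colon cDNA carried a single dye (Cy3) on NimbleGen arrays. After a GenePix scan and analysis in NimbleScan, the authors deposited 1 linear intensity per RefSeq transcript and array. The submitters' processing notes name RMA (robust multi-array averaging, which corrects the background, equalises the arrays and combines probes). The settings and the rule for the 8070 blank rows of 26420 are not given in the sources used here. RMA pulls the arrays together, so a shift common to most genes would be reduced. Precision is limited by the number of arrays.

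The log2 of each deposited intensity was taken, without a pseudocount, scaling or filter. limma 3.58.1 in R 4.3.3 (lmFit, eBayes) compared MSCT with control on all 18350 measured rows, with Benjamini-Hochberg adjustment over them. Accessions were named through the RefSeq table of GRCr8 without versions. Data of this comparison were simulated (18350 rows, 200 changed by 2 on the log2 scale, 10 simulations). Of the changed rows 99.2% passed the screen in the right direction, and 4.93% of unchanged rows had an unadjusted limma p under 0.05. The planted change was larger than the difference of any member, so recovery of differences as small as those of the members was not tested. Replicate arrays are separate rats per the series text.

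Members and lists were chosen with earlier results of these data known, so no test over a list was made. All members were accounted for. Values on every array were given for members with an unadjusted p under 0.05 and the 2 of highest signal in each role. Of the other matrix genes and receptors, up to 5 with the smallest p in each direction were named, and of each marker list the 2 of highest signal. Other genes given with values were chosen after these were seen. Python 3.11.15, pandas 2.3.3 and matplotlib 3.10.9 were used. Alternatives were quantile normalization, arrays set to equal medians, an equal-variance t-test, a fit without the dimmest 25% or 50% of rows, the trend and robust options of eBayes, the replicate number as a block, each array left out, the row with the lowest mean, a limit of 1.5-fold and fold changes of linear means.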

Additional observations from a re-analysis of the deposited data

How the results depend on the processing

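The count of 1 member past the screen (Sdc3) held under the alternatives run, except with a limit of 1.5-fold (5 members) and with an array left out (1 to 4). The count of 6 members with an unadjusted p under 0.05 was 10 without the dimmest 25% of rows, 10 without the dimmest 50% and 15 with the trend and robust options, where 2 members (Bgn and Sdc3) passed an adjusted p of 0.05. It was 4 by the t-test, where Bgn, Col1a2 and Col5a3 were lost and Prelp was gained, and between 2 and 8 with an array left out. With replicate numbers as a block it was 3 (Bgn, P4ha1 and Sdc3), while the count over all rows was 2686 against 2196 without it. The deviations of same-numbered arrays correlated at 0.23 across rows, but the labels give no shared batch or animal, so the arrays share only a number. The median difference of 0.22 ranged from 0.13 to 0.27 with an array left out. The count of 7 other matrix genes and receptors was 8 by the t-test (4 higher and 4 lower against 6 and 1), 9 with equal array medians, 4 without the dimmest 50% of rows and 0 to 6 with an array left out.

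Several small differences had no stable sign. After quantile normalization Lum was at -0.0061, Dcn at -0.025, Sdc2 at -0.013 and Gpc1 at 0.0078. With equal array medians Eln was at 0.0074, Sparcl1 at 0.029 and Gpc1 at 0.031, and with linear means Lum was at -0.087 and Dcn at -0.010. With an array left out, differences ranged from -0.29 to 0.39 for Col5a1, -0.38 to 0.27 for Plod2, -0.57 to 0.065 for Serpinh1, -0.10 to 0.50 for Loxl1, -0.56 to 0.61 for Lum, -0.26 to 0.27 for Dcn, -0.063 to 1.28 for Acan, -0.0012 to 3.87 for Bcan, -0.21 to 0.15 for Eln, -0.11 to 0.28 for Fbn2, -0.23 to 0.21 for Sparcl1, -0.031 to 0.052 for Sdc2, -0.25 to 0.23 for Gpc1 and -0.24 to 0.097 for Cd93. The causes were not tested.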
